A study of Gallus gallus with 6 samples.

Results

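The 70 genes described here are the cyclins, cyclin-dependent kinases (CDKs), CDK inhibitors, E2F and retinoblastoma (RB) family members, centromere proteins and mitotic regulators among the 9107 gene rows of an RNA-seq table from chick lens fiber cells. They were chosen by gene symbol, with earlier results of these data known. Taken were the CCN families A to I, L and T, every symbol that begins with CDK, and numbered E2F and PLK genes. CENP, AURK and BUB genes and 10 further symbols given by name were added. Of those 10, TTK, BIRC5 and MKI67 were not analysed here, and the AURK prefix matched AURKAIP1 alone. The prefixes also took in 10 genes that are named for a partner and are not themselves cyclins or kinases, such as CDKAL1, which modifies tRNA, and AURKAIP1, a protein of the mitochondrial ribosome. They are kept as members and described separately, though AURKAIP1 is also counted in the class of mitotic and kinetochore genes.

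Progress through the cell cycle is driven by CDKs, which are active only when bound to a cyclin. D and E cyclins act in G1, where they release E2F transcription factors from RB family proteins, and A and B cyclins act in S phase and mitosis. In the lens, division is confined to the epithelium at the front of the lens; cells that become fibers leave the cell cycle, and the CDK inhibitor p27, the product of CDKN1B, is known for holding them in that state. Several members have other work, with cyclins C, H, L and T and CDKs 7, 8, 9, 12, 13 and 19 acting mainly in transcription and RNA processing.

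Messenger RNA was sequenced from fiber cells dissected out of whole lenses of White Leghorn embryos at embryonic day 13. The untreated group was taken at 0 h (n = 3 pools) and the hypoxia group after 8 h in organ culture at 1% O2 (n = 3 pools), in medium with serum; each pool held 10 to 15 lenses, and the labels call the pools biological triplicates. No genetic change is named for either group. Lenses held for 8 h in normal oxygen were not analysed here, so time in culture and oxygen cannot be told apart, and in bulk tissue fewer cells of a type and less RNA per cell cannot be told apart either.

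Reads assigned to the listed genes came to 23.5 to 32.6 M a library, of which ASL1 (delta-crystallin) took 48.2% to 53.1%. Levels are normalized counts (reads over each library's size factor), and log2 fold changes are hypoxia over untreated on the log2(value + 1) scale, ± SE. The threshold for calling a gene higher or lower was an adjusted p of 0.05 in a limma fit over all 9105 genes tested. Of 24 fiber markers listed, 22 were measured, led by ASL1 and CRYAA (alpha-A-crystallin), and their summed level was 18360165 to 20527087 in untreated and 15239269 to 16450224 in hypoxia libraries (17 lower, 0 higher). Most of that sum was ASL1, which did not pass (log2 fold change -0.28, adjusted p = 0.0632). Marker calls were made under the deposited scaling only. Of 20 lens epithelium markers, 15 were measured, led by DKK3 and PITX3, with summed levels of 53843 to 56760 and 47707 to 53713 (4 higher, 6 lower). FOXE3, a defining epithelial factor, was not analysed here. Of the marker lists of red cells, white cells, vessels and mesenchyme, and retina and ciliary body, 2 of 20, 2 of 18, 4 of 18 and 5 of 18 genes were measured. The summed level of the vessel and mesenchyme markers was 417 to 595 in untreated and 4912 to 8031 in hypoxia libraries (2 higher, 1 lower). Without TAGLN, a smooth muscle actin-binding protein that read 190, 111 and 70 and then 7648, 4768 and 4603, it was 347 to 474 and 293 to 383, and the endothelial marker PECAM1 fell from 172, 156 and 179 to 22, 65 and 40. The summed level of the retina and ciliary body markers was 594 to 763 and 778 to 1066 (2 higher, 0 lower). The red cell markers summed to 275 to 368 and 198 to 409 and the white cell markers to 228 to 286 and 159 to 249, with 0 called. No measured marker was at 0 in any library, and the part of other cell types in the results below was not tested.

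Of the 70 genes, 25 (35.7%) were higher after 8 h in 1% O2, 18 (25.7%) were lower and 27 did not pass. Over all genes tested the shares were 29.4% higher and 25.7% lower, so the share of these genes that fell equalled the background and the share that rose was near it. With library totals as the scaling, 35 were higher and 11 lower, or 76.1% of the calls higher against 58.1%, and among all genes tested 78.9% of the calls were higher against 53.4%. At least 2-fold changes were called upward in 7 of the 70 members and downward in 8. Among the 9105 genes tested they were called upward in 926 (10.2%) and downward in 361 (3.96%). Members with an untreated mean under 100 gave 3 of the 7 rises and 4 of the 8 falls. Among all genes tested, those under 100 gave 405 of the 926 rises and 151 of the 361 falls. The groups did not overlap in 46 members (65.7%), against 62.7% of all genes tested. The median log2 fold change was 0.17, and that of all genes tested was -0.01. By role, as the plot of changes displays, all 4 G1 cyclins measured were higher. All 4 atypical cyclins were lower (2 of them not called with library totals). Of 20 genes classed as mitotic and kinetochore, AURKAIP1 included, 6 were higher and 5 lower.

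**Figure D1:**
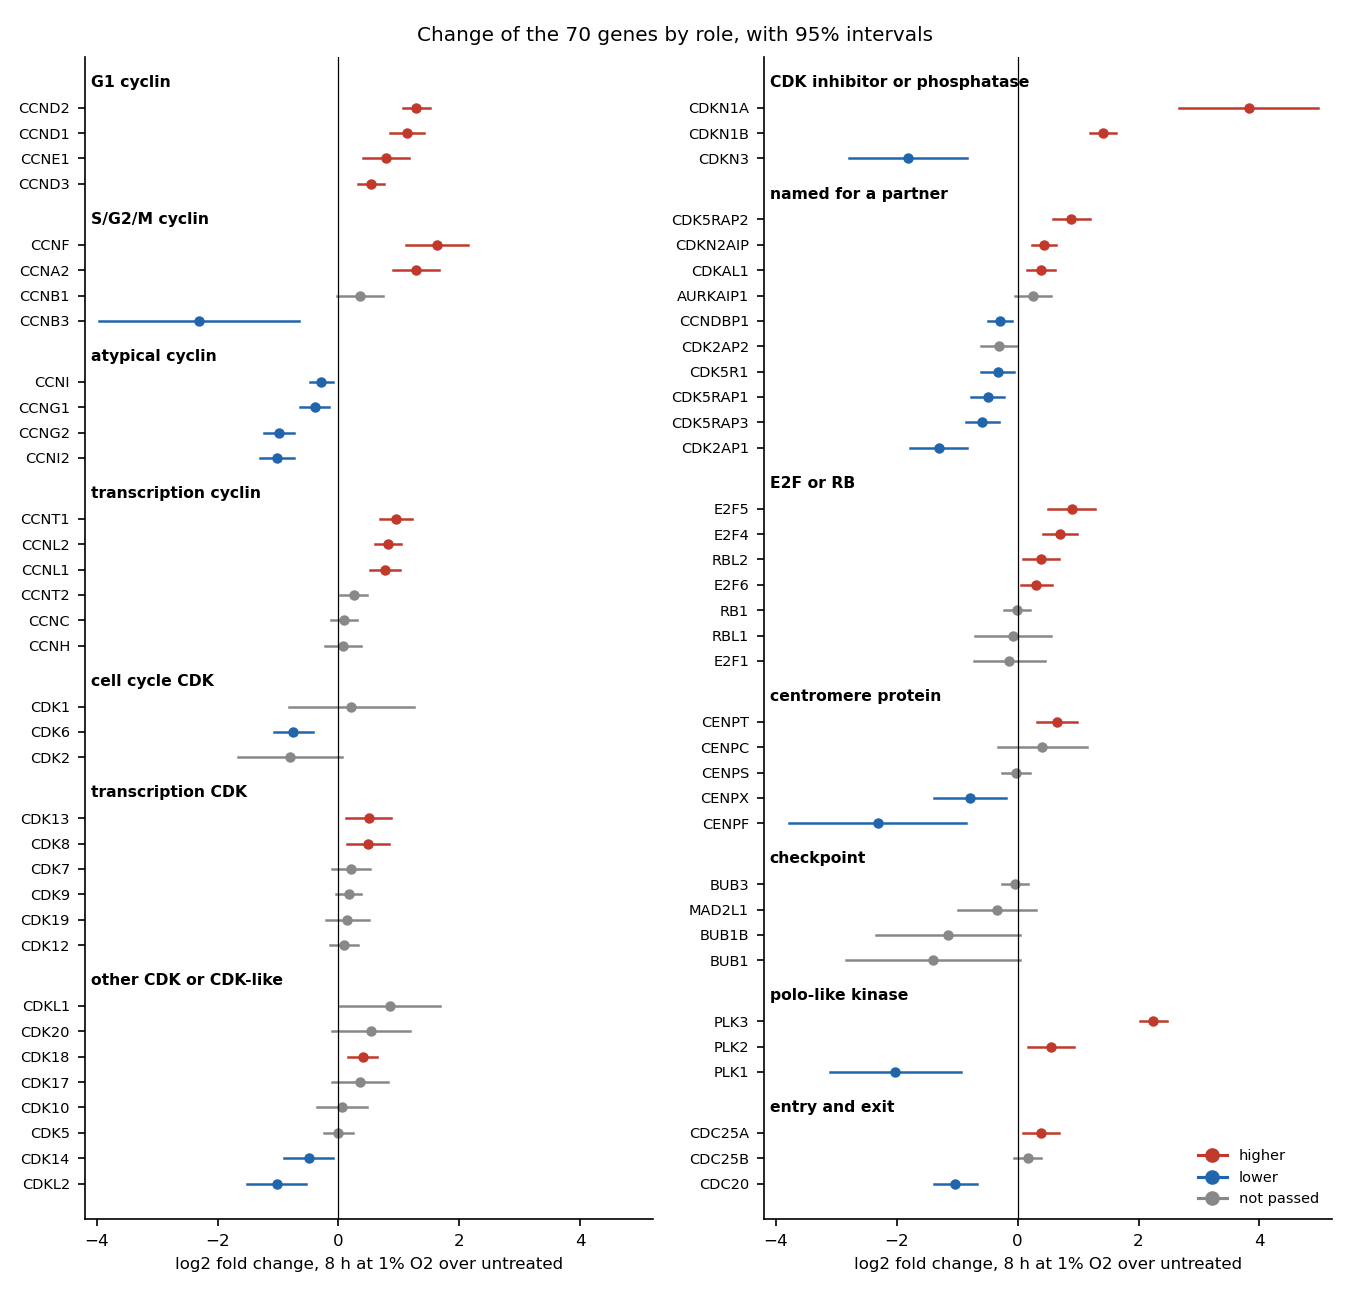
Log2 fold change (x axis) of each of the 70 genes, grouped by role, with its 95% interval; red genes were higher, blue genes lower and grey genes did not pass at an adjusted p of 0.05 (limma, n = 3 pools a group). The 4 G1 cyclins lie right of 0 and the 4 atypical cyclins left of it.

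Each of the D cyclins and cyclin E1 rose. CCND2 (cyclin D2) read 1306, 1475 and 1365 in the untreated pools and 3052, 3865 and 3265 in the hypoxia pools, a log2 fold change of 1.29 ± 0.10 (adjusted p = 1.89e-06). CCND1 (cyclin D1) read 434, 413 and 310 and then 816, 867 and 837, a log2 fold change of 1.14 ± 0.13 (adjusted p = 2.4e-05). In both genes every hypoxia library was above every untreated library. CCND3 (cyclin D3) rose less, from 396, 438 and 426 to 633, 575 and 632 (0.55 ± 0.10, adjusted p = 0.000764). CCNE1 (cyclin E1), which pairs with CDK2 to start DNA replication, went from 150, 104 and 98 to 205, 196 and 200 (0.79 ± 0.17, adjusted p = 0.00262), with untreated pool 1 nearest to the hypoxia values. These 4 calls were kept in each of the 16 alternative analyses. Library totals as the scaling moved all 4 changes further upward, so that alternative is no check on a rise.

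CDK6, the kinase partner of D cyclins among the genes measured, was lower. It stood at 5878, 7064 and 6453 in untreated and 3130, 4842 and 3752 in hypoxia libraries, with no overlap (-0.75 ± 0.15, adjusted p = 0.00194). CDK2, the partner of cyclins E and A, stood at 94, 38 and 39 and then 27, 22 and 42, and CDK1, the kinase of mitosis, at 85, 26 and 26 and then 66, 36 and 38. Neither passed (adjusted p = 0.101 and 0.723), and in both untreated pool 1 was more than 1.5 times each of the other untreated pools. The 95% interval of the CDK1 change ran from -0.83 to 1.24 on the log2 scale, which leaves room for a change of over 2-fold upward. That of the CDK2 change ran from -1.67 to 0.05, which leaves room for a change of over 2-fold downward.

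Among cyclins of S phase and mitosis, 2 of 4 were higher, 1 was lower and 1 did not pass. Over all genes tested, 29.4% were higher and 25.7% lower. CCNA2 (cyclin A2, of S phase and G2) read 100, 74 and 69 in untreated and 197, 205 and 187 in hypoxia libraries (1.28 ± 0.17, adjusted p = 0.000105). CCNF (cyclin F, which binds no CDK and serves as the substrate receptor of a ubiquitin ligase) read 51, 31 and 38 and then 147, 114 and 112 (1.63 ± 0.24, adjusted p = 0.000164). Both were higher in every hypoxia library than in any untreated library. CCNB3 (cyclin B3) fell from 54, 10 and 27 to 6, 1 and 9 (-2.31 ± 0.75, adjusted p = 0.0233), on 1 to 46 reads a library, and the call ended without untreated pool 1 (-1.76, adjusted p = 0.084), untreated pool 3 or hypoxia pool 2 (lowest to highest log2 fold change over the alternatives, -2.92 to -1.62). CCNB1, a mitotic cyclin whose row carries CCNB2 as its alternate symbol, stood at 157, 120 and 118 and then 199, 148 and 160 (0.36 ± 0.17, adjusted p = 0.096); it passed without untreated pool 1 (0.49, adjusted p = 0.0432) and with library totals (0.57, adjusted p = 0.0251).

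**Figure D2:**
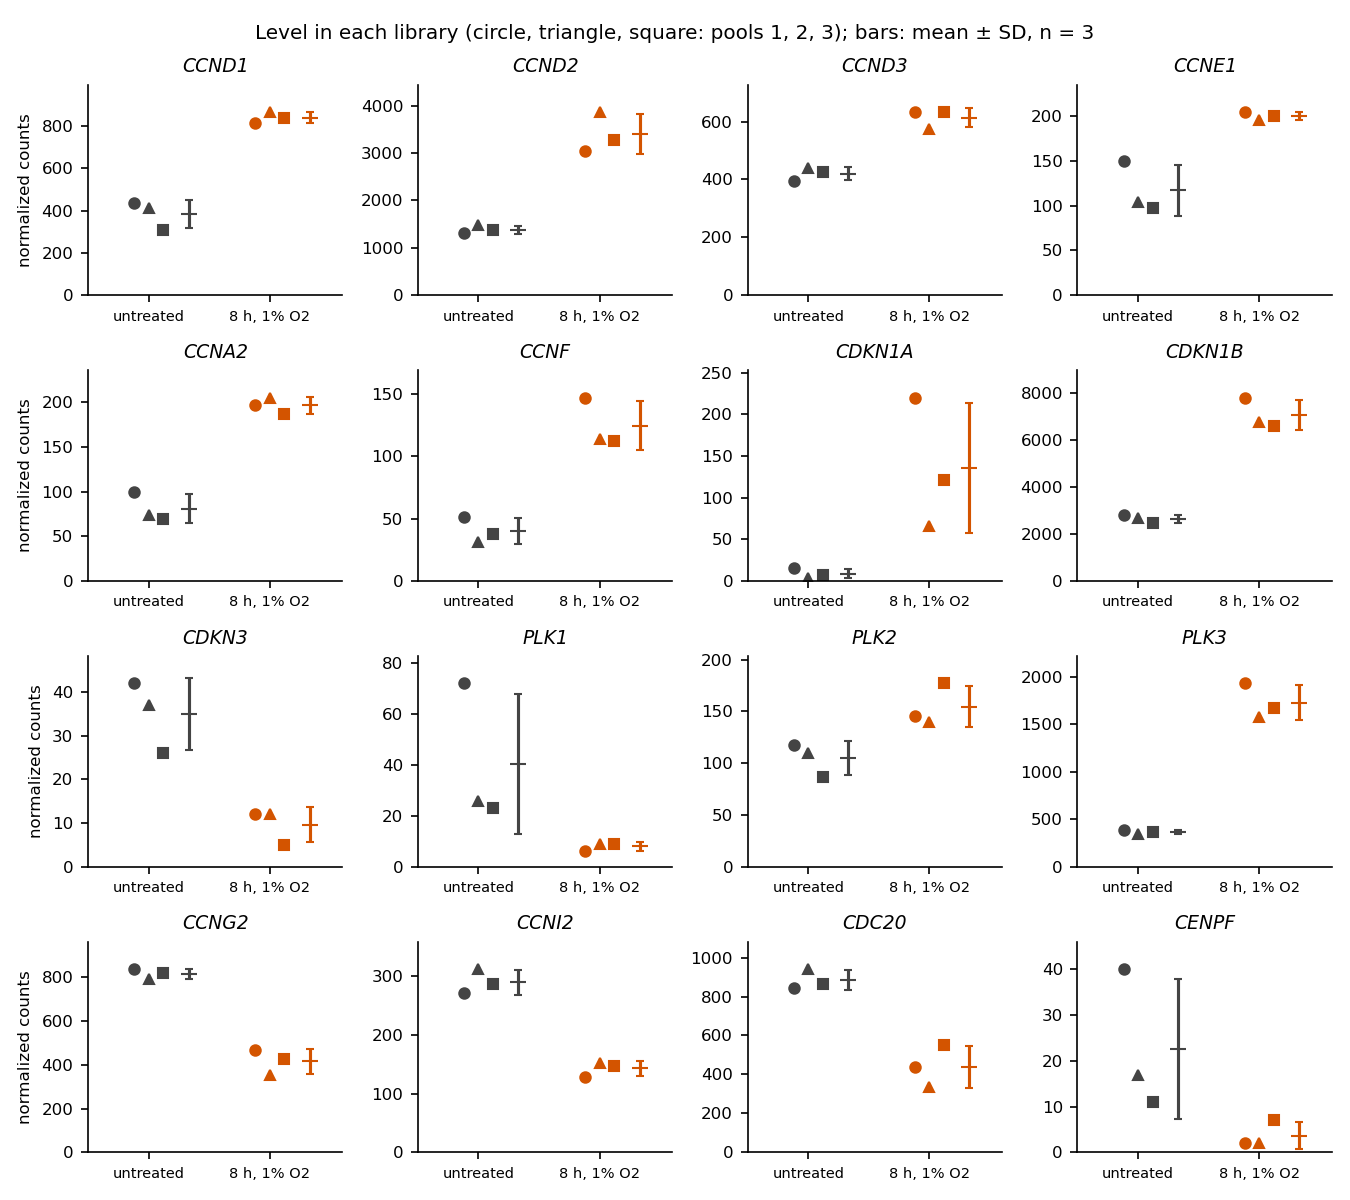
Normalized counts (y axes start at 0 and differ between panels) of 16 called genes in each library; circles, triangles and squares are pools 1, 2 and 3, grey for untreated and orange for 8 h at 1% O2, with the mean ± SD beside them. In PLK1 and CENPF untreated pool 1 lies far above the other untreated pools, and in CDKN1A the hypoxia pools spread from 66 to 220.

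The CDK inhibitors of the CIP/KIP family among the genes measured, CDKN1A and CDKN1B, rose. CDKN1B (p27) read 2825, 2669 and 2477 in untreated and 7819, 6801 and 6631 in hypoxia libraries (1.41 ± 0.10, adjusted p = 5.98e-07). CDKN1A (p21, best known as a target of p53) read 15, 4 and 7 and then 220, 66 and 121, or 14.1-fold on the log2(value + 1) scale (3.82 ± 0.52, adjusted p = 0.00019). It was the member with the largest fold change, with untreated values resting on 13, 4 and 5 reads and hypoxia pools spread from 66 to 220. CDKN3, a phosphatase that acts on CDK2 and is named with the inhibitors, fell from 42, 37 and 26 to 12, 12 and 5 (-1.81 ± 0.45, adjusted p = 0.00518). The ratio of CDKN1A to CDKN1B within a library rose by 2.41 log2 units from untreated to hypoxia and did not overlap between the groups. It restates the 2 changes above for a pair picked after its values were seen.

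Of 7 E2F and RB family genes, 4 were higher, 0 lower and 3 did not pass. The shares over all genes tested were 29.4% higher and 25.7% lower. E2F4 and E2F5, the repressor E2Fs that work with RBL1 (p107) and RBL2 (p130), were higher: E2F4 went from 232, 268 and 308 to 434, 409 and 466 (0.70 ± 0.13, adjusted p = 0.000732). E2F5 went from 101, 85 and 99 to 167, 151 and 219 (0.89 ± 0.18, adjusted p = 0.00138). The repressor E2F6, which does not bind RB proteins, and RBL2 rose by 0.31 ± 0.11 and 0.39 ± 0.13 on the log2 scale (adjusted p = 0.0374 and 0.0283). The E2F6 call ended without any library but untreated pool 3 (highest adjusted p = 0.127) and the RBL2 call without untreated pool 2, untreated pool 3 or hypoxia pool 2 (highest adjusted p = 0.0975). The authors' deposited table lists E2F6 and RBL2 at adjusted p = 0.0937 and 0.0669. E2F1, the activator E2F, stood at 78, 43 and 75 and then 65, 58 and 50 (-0.14 ± 0.27, adjusted p = 0.683). RB1 was at 826 ± 83 and 817 ± 32 (SD, n = 3), a difference with a 95% interval of -0.23 to 0.20 on the log2 scale, and RBL1 at 61.0 ± 20.7 and 56.0 ± 10.1, with an interval of -0.71 to 0.55.

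The atypical cyclins G1, G2, I and I2 were lower under the deposited scaling, and the calls of CCNG1 and CCNI ended with library totals. CCNG2 (cyclin G2, known from cells that stop dividing) fell from 837, 793 and 820 to 466, 354 and 428 (-0.98 ± 0.11, adjusted p = 3.03e-05). CCNI2, a relative of cyclin I, fell from 271, 312 and 286 to 129, 152 and 148 (-1.01 ± 0.13, adjusted p = 6.72e-05). In both genes every hypoxia value was below every untreated value, and the calls were kept in each of the 16 alternatives. CCNG1 (cyclin G1, a p53 target) read 5481, 6473 and 6077 and then 4276, 4254 and 5248 (-0.39 ± 0.11, adjusted p = 0.0102), with -0.17 and adjusted p = 0.161 under library totals; the call also ended without untreated pool 2. CCNI (cyclin I) read 9930, 9809 and 9343 and then 8242, 7741 and 7857 (-0.29 ± 0.09, adjusted p = 0.0155), with -0.07 and adjusted p = 0.535 under library totals. The CCNI call also ended with totals without crystallins and without untreated pool 1 (-0.27, adjusted p = 0.0513) or pool 2.

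Cyclins of transcription and splicing rose or did not pass. CCNT1 (cyclin T1, which with CDK9 forms the elongation factor P-TEFb) went from 273, 318 and 369 to 627, 599 and 612 (0.95 ± 0.12, adjusted p = 6.41e-05). Its relative CCNT2 stood at 348, 374 and 363 and then 415, 417 and 460 (0.25 ± 0.10, adjusted p = 0.0557); the groups did not overlap, and the gene passed only with library totals (0.47, adjusted p = 0.00287) and with totals without crystallins (0.34, adjusted p = 0.0152). The splicing-associated cyclins L1 and L2 rose alike, CCNL1 from 343, 314 and 285 to 525, 508 and 572 (0.77 ± 0.11) and CCNL2 from 405, 375 and 404 to 730, 693 and 670 (0.82 ± 0.10), with adjusted p = 0.000154 and 3.21e-05. CCNC (cyclin C, of the Mediator kinase module) and CCNH (cyclin H, partner of CDK7) had 95% intervals of -0.13 to 0.30 and -0.23 to 0.37, and CCNC passed with library totals (0.30, adjusted p = 0.018).

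Of the 6 CDKs of transcription, CDK8 of the Mediator kinase module (134, 113 and 112, then 196, 147 and 164) and CDK13, a kinase of RNA polymerase II (242, 248 and 265, then 267, 454 and 370), were higher at adjusted p = 0.023 and 0.0303. Their relatives CDK19 and CDK12 and the kinases CDK7 and CDK9 did not pass, with log2 fold changes from 0.10 to 0.21; with library totals CDK7, CDK9 and CDK12 passed (0.43, 0.39 and 0.31), CDK9 also with totals without crystallins. The CDK8 call ended without untreated pool 2, untreated pool 3 or hypoxia pool 1 (highest adjusted p = 0.0827), and the CDK13 call under plain moderation and without any library but hypoxia pool 1 (highest adjusted p = 0.1). Among 8 other CDKs and CDK-like kinases, CDKL2 fell from 436, 465 and 554 to 259, 311 and 165 (-1.02 ± 0.22, adjusted p = 0.00375), while its relative CDKL1 stood at 28, 89 and 56 and then 109, 78 and 100 and did not pass (adjusted p = 0.0734), except with library totals (1.07, adjusted p = 0.0275) and without untreated pool 2 (1.24, adjusted p = 0.00917). CDK18 was higher (0.40 ± 0.11, adjusted p = 0.00978) and CDK14 lower (-0.49 ± 0.18, adjusted p = 0.04), the latter with overlapping groups and a call that ended in 6 of 16 alternatives: both totals scalings and without untreated pool 1, untreated pool 2, hypoxia pool 1 or hypoxia pool 3 (highest adjusted p = 0.277). CDK5, a kinase of differentiated cells, was at 466 ± 24 and 466 ± 47, and CDK10, CDK17 and CDK20 did not pass, CDK17 passing with library totals (0.57, adjusted p = 0.0269).

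The polo-like kinases moved in opposite directions. PLK3, known for its response to stress and growth signals, read 385, 342 and 361 in untreated and 1930, 1581 and 1674 in hypoxia libraries, 4.74-fold higher (2.25 ± 0.10, adjusted p = 3.37e-08), which was the smallest p of the 70 genes. PLK2, also a stress-responsive kinase, rose from 118, 110 and 87 to 146, 140 and 177 (0.56 ± 0.17, adjusted p = 0.0182), a call that ended without untreated pool 3 or hypoxia pool 3 (highest adjusted p = 0.078). PLK1, which drives entry into and passage through mitosis, fell from 72, 26 and 23 to 6, 9 and 9 (-2.03 ± 0.49, adjusted p = 0.00498), on 61, 24 and 17 and then 7, 11 and 10 reads. Without untreated pool 1 the PLK1 log2 fold change was -1.52 (adjusted p = 0.0172). The ratio of PLK3 to PLK1 within a library, a pair picked after its values were seen, rose by 4.27 log2 units.

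CDC20, an activator of the anaphase-promoting complex, read 843, 940 and 865 and then 437, 334 and 550 (-1.03 ± 0.16, adjusted p = 0.000421), and was called in every alternative. The phosphatase genes that activate CDKs stood at 159, 158 and 136 and then 197, 182 and 213 for CDC25A (0.38 ± 0.14, adjusted p = 0.0333) and at 1473 ± 157 and 1650 ± 138 for CDC25B, which passed only with library totals (0.38, adjusted p = 0.00784). The CDC25A call ended without untreated pool 2, untreated pool 3, hypoxia pool 1 or hypoxia pool 3 (highest adjusted p = 0.121), and the authors' deposited table lists it at adjusted p = 0.083.

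Of 5 centromere proteins, 1 was higher and 2 were lower. The shares over all genes tested were 29.4% higher and 25.7% lower. CENPF, a kinetochore protein abundant in G2 and mitosis, fell from 40, 17 and 11 to 2, 2 and 7 (-2.31 ± 0.67, adjusted p = 0.0126), on 2 to 34 reads a library. It was called in each of the 15 alternatives that tested it, with log2 fold changes of -2.79 to -1.58, the smallest with a pseudocount of 5. The alternative with a mean of at least 50 did not test it. If CENPF was listed only for its untreated values it had to come out lower, and refits of the same row cannot check that. CENPX, a histone-fold partner of CENPS, fell from 71, 51 and 62 to 45, 31 and 30 (-0.79 ± 0.27, adjusted p = 0.0269), a call that ended with library totals and without untreated pool 1, untreated pool 3, hypoxia pool 2 or hypoxia pool 3 (highest adjusted p = 0.105). CENPT, which links centromeric chromatin to the outer kinetochore, rose from 166, 191 and 155 to 238, 246 and 327 (0.65 ± 0.15, adjusted p = 0.00393). CENPC and CENPS did not pass. None of the 4 spindle checkpoint genes passed: BUB1 stood at 45, 10 and 13 and then 3, 11 and 7 (adjusted p = 0.0907), BUB1B at 42, 15 and 16 and then 6, 8 and 16 (adjusted p = 0.0916), and MAD2L1 at 88.0 ± 23.1 and 70.7 ± 25.7. BUB3 was at 472 ± 31 and 457 ± 9, with a 95% interval of -0.26 to 0.17.

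Untreated pool 1 stood apart in several members of low level, mitotic genes among them. In 10 of the 70 genes (14.3%) it was more than 1.5 times each of the other untreated pools, against 3.06% of all genes tested. These shares are not matched for level: 19 of the 70 genes and 1581 of the 9105 tested had an untreated mean under 100. How the table was filtered is not stated, and a low gene listed only for its value in pool 1 had to show this excess. BUB1, BUB1B and CENPF, for example, reached 45, 42 and 40 in pool 1 and were far lower in every other library. The part of the filter in the excess was not tested. The same excess held in 1 member for untreated pool 2 and in 0 for pool 3. The 10 genes were BUB1, BUB1B, CCNB3, CDK1, CDK2, CDK2AP1, CDKN1A, CENPC, CENPF and PLK1, and their summed level was 731 in untreated pool 1, 308 and 342 in the other untreated pools, and 432, 270 and 358 in the hypoxia pools. Marker lists also differed between the untreated pools. Of 15 epithelial markers, pool 1 was the highest untreated pool in 10, among them GJA1, a gap junction gene (8583, 5463 and 5218), and the lowest in 4, namely DKK3 (18490, 19953 and 20184), PITX3 (10755, 10931 and 11817), LAMA1 and NPNT; their summed level was 56760, 53843 and 54102. Of 5 retina and ciliary body markers, pool 1 was the highest in 4, and in 3 it was more than 1.5 times each of the other untreated pools: RLBP1 (73, 31 and 39), GLUL (164, 81 and 91) and PMEL (45, 18 and 11). Of 22 fiber markers, pool 1 was the lowest untreated pool in 15. Their part in these values was not tested. Without pool 1, PLK1, CENPF (-1.82, adjusted p = 0.0425), CDKN1A (4.27, adjusted p = 0.000138) and CDK2AP1 (-1.07, adjusted p = 0.00182) remained called and CCNB3 did not. Pool 1 was the highest untreated pool in CDKN1A, so leaving it out could only enlarge that rise and is no check on it. For PLK1 and CENPF, refits of the same rows cannot check whether they were listed only for their untreated values.

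**Figure D3:**
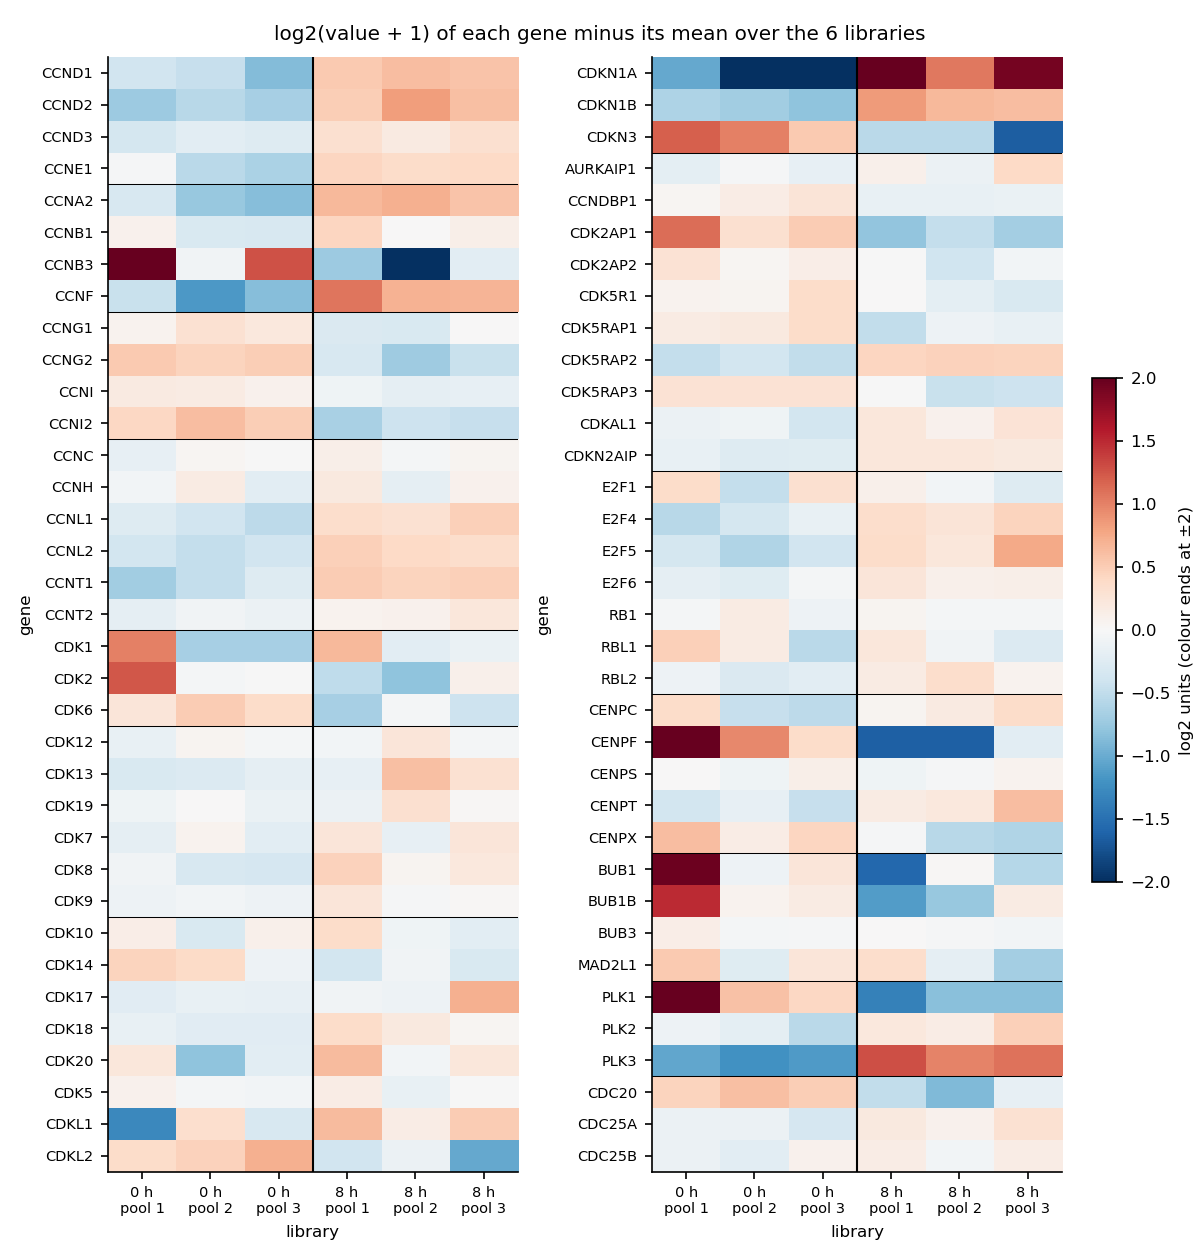
Each row is a gene and each column a library; the colour gives log2(value + 1) minus the gene's mean over the 6 libraries, with red above and blue below, and thin lines separate roles. Untreated pool 1 is the reddest of the 3 untreated columns in CDK1, CDK2, BUB1, BUB1B and PLK1, while PLK3 and CDKN1B show even columns within each group.

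Of the 10 genes named for a partner, 3 were higher, 5 lower and 2 did not pass. Over all genes tested, 29.4% were higher and 25.7% lower. CDK2AP1, a protein that binds CDK2, fell from 244, 140 and 159 to 64, 80 and 69 (-1.30 ± 0.21, adjusted p = 0.000422), while its relative CDK2AP2 stood at 309, 260 and 279 and then 251, 193 and 245 and did not pass (adjusted p = 0.0778). CDK5RAP2, a centrosome protein, rose from 100, 107 and 99 to 187, 192 and 189 (0.89 ± 0.14, adjusted p = 0.000289), with close values within each group. CDK5RAP1, CDK5RAP3, CDK5R1 (p35, the activator of CDK5) and CCNDBP1 were lower by 0.29 to 0.58 on the log2 scale, and CDKAL1 and CDKN2AIP were higher by 0.39 and 0.44. With library totals the calls of CDK5RAP1 (-0.28, adjusted p = 0.091), CDK5R1 and CCNDBP1 ended and AURKAIP1, at 345 ± 22 and 417 ± 75, passed (0.48, adjusted p = 0.0113), as it did without hypoxia pool 2 (0.38, adjusted p = 0.0272). Leaving out 1 library ended the calls of CCNDBP1 (untreated pool 2 or 3), CDKAL1 (untreated pool 3, adjusted p = 0.0578) and CDK5R1 (any but hypoxia pool 1).

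Ratios of 2 genes within a library, each value with 1 added, are given for 18 pairs of relatives as a description, with no test, since the pairs were picked after their values were seen. CCNT1 rose relative to CCNT2 by 0.70 log2 units (-0.19 ± 0.19 in untreated and 0.51 ± 0.09 in hypoxia libraries, SD), CCND2 relative to CCND3 by 0.75 and CCNA2 relative to CCNB1 by 0.93. CCNG2 fell relative to CCNG1 by 0.59 and CCNI2 relative to CCNI by 0.73. E2F4 and E2F5 rose relative to E2F1 by 0.84 and 1.03. The ratios of CCND2 to CCND1 (difference 0.15) and CCNL1 to CCNL2 (-0.05) overlapped between the groups. So did those of CDK8 to CDK19 (0.34), CDC25A to CDC25B (0.22) and CENPT to CENPC (0.24).

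**Figure D4:**
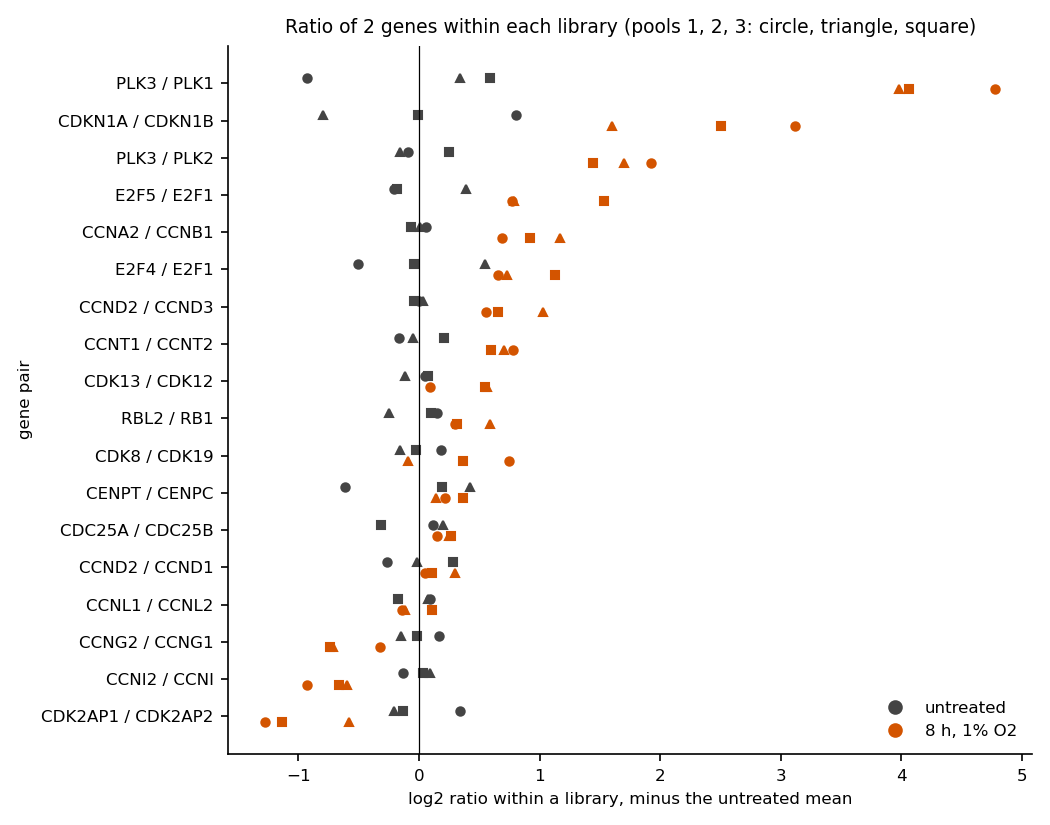
Log2 ratio of 2 genes in each library, minus the mean of the untreated libraries (x axis); black symbols are untreated pools, orange symbols pools after 8 h at 1% O2. The ratio of PLK3 to PLK1 moved most, by 4.27 log2 units, and the ratio of CCNL1 to CCNL2 overlapped between the groups.

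Other genes of the cell cycle were counted from lists of genes outside the 70; over all genes tested 29.4% were higher and 25.7% lower. Of 63 genes of chromosome segregation and cytokinesis, 26 were measured, and 1 was higher, 13 were lower and 12 did not pass (3.85% higher and 50.0% lower), with a median log2 fold change of -0.66. SMC2 and NCAPH, subunits of condensin, fell from 101, 27 and 35 to 1, 3 and 4 and from 137, 132 and 145 to 68, 65 and 52 (-3.78 ± 0.61 and -1.16 ± 0.18), and the 1 higher gene was CKAP5, a microtubule-binding protein (0.58 ± 0.10). Of 42 genes of DNA replication, 26 were measured, with 4 higher, 9 lower and 13 not passing (15.4% and 34.6%, median -0.27). PCNA, the sliding clamp of DNA polymerase, read 497, 472 and 454 and then 883, 848 and 821, and UHRF1, which maintains DNA methylation, rose by 1.18 ± 0.25, while RRM2, a ribonucleotide reductase subunit, fell from 77, 25 and 36 to 1, 1 and 2 and the helicase subunit MCM6 from 297 ± 23 to 158 ± 21. Of 48 further regulators of cyclins, CDKs, E2F and RB, 36 were measured, with 11 higher, 9 lower and 16 not passing (30.6% and 25.0%, near the shares over all genes tested, median -0.07). MYC, a growth-promoting transcription factor, rose from 187 ± 4 to 695 ± 134 and MNAT1, which joins CDK7 and cyclin H in the CDK-activating kinase, from 244 ± 12 to 671 ± 65, while ANAPC15 and ANAPC1, subunits of the anaphase-promoting complex, fell by 0.82 ± 0.12 and 0.65 ± 0.10 on the log2 scale. SMC2 and RRM2 had hypoxia values of 1 to 4, and a gene listed only for its untreated values had to differ. The same can hold for other lower genes of low level in the segregation and replication lists. Their shares of lower genes are therefore not free of the filter of the table, whose part was not tested. Untreated pool 1 was the highest library in SMC2 and RRM2. It was also the highest in TACC3, CKAP2, TOP2A, MCM3 and MCM5, among other lower genes of these lists. In lower genes such as NCAPH, SMC4 and MCM6 another untreated pool was the highest. The calls of these lists were not repeated without untreated pool 1. The mean log2(value + 1) of the segregation list was 7.13, 6.65 and 6.65 in the untreated and 5.69, 5.92 and 6.11 in the hypoxia libraries. The 20 members classed as mitotic and kinetochore, 6 higher and 5 lower, include AURKAIP1 and the stress-responsive PLK2 and PLK3. Their mean log2(value + 1) was 7.13, 6.53 and 6.60 and then 6.55, 6.44 and 6.75, with overlapping groups.

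**Figure D5:**
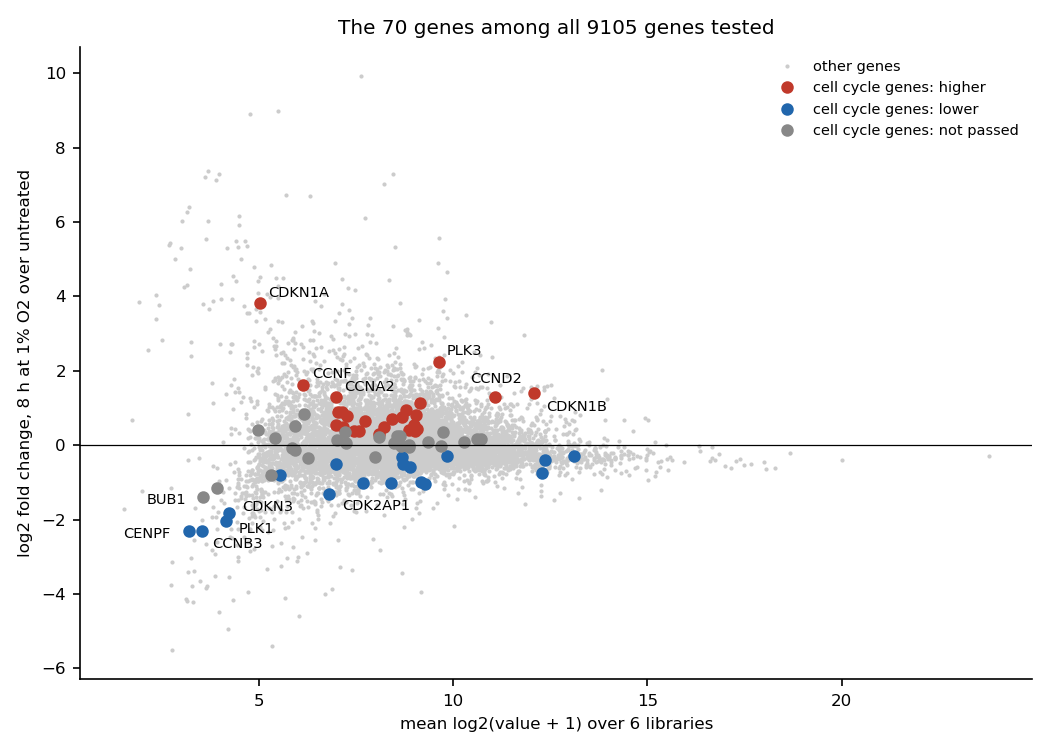
Log2 fold change against the mean log2(value + 1) over 6 libraries for all 9105 genes tested (pale points) and the 70 cell cycle genes (red higher, blue lower, grey not passed). CDKN1A has the largest rise of the 70, and CENPF, CCNB3 and PLK1, the largest falls, are among the members of lowest level.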

How the data were processed

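The authors deposited 1 table of normalized counts, here treated as a score: per the values, whole reads scaled by library size factors and then rounded, with a median ratio to the gene-wise geometric mean of 0.992 to 1.02. Per the file headers, the same table holds the authors' own log2 fold change (shrunken) with its adjusted p-value. The submitters' processing notes name the build galGal6 and, with no roles, Bowtie2, cutadapt, DESeq2, edgeR, HISAT2, STAR and StringTie. How genes were counted, annotated and filtered, and whether strand was used, is not stated there, so reads of near-identical or overlapping genes can have been shared. A gene listed because it was high in 1 group had to differ. Among called members of low level this can hold for CENPF, CCNB3, PLK1 and CDKN3, higher in the untreated group, and for CDKN1A, higher in the hypoxia group. It was not tested.

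Size factors recovered from the steps of the rounded values gave the reads per library; they cover counting error only. Values were analysed as log2(value + 1), a pseudocount of 1, with limma 3.58.1 in R 4.3.3 (group as the only term, mean-variance trend, robust moderation, Benjamini-Hochberg adjustment) across all 9105 genes with a mean of at least 1, leaving out 1 row with a value that was not whole; all 70 members passed that filter. The fit was tested on simulated data with the same dispersion in every gene, few changed genes, none of them of the lowest level, and no pool standing apart. That run therefore does not cover the lowest members or untreated pool 1. P-values set the difference between the group means against the spread between pools within a group, moderated over genes. Columns of unknown samples numbered 0. Symbols of 68 of the 70 genes matched RefSeq (GRCg7b). Promoter and protein sequences and motifs were not used here. Members and lists were chosen with earlier results of these data known. Per-library values are given for called members changed at least 1.5-fold, at most 5 a role and direction, for their relatives, and for other members that a result turns on; of each further list the 2 genes with the smallest p in each direction are named, and the markers named for untreated pool 1 and the vessel list were chosen after their values were seen.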

Additional observations from a re-analysis of the deposited data

How the results depend on the processing

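The fit was repeated under 16 alternatives: pseudocounts of 0.5 and 5, no filter, a mean of at least 50, 3 scalings, plain moderation, voom weights, the replicate block, and each of the 6 libraries left out. Of 43 called members, 28 kept their call and direction in every alternative that tested them, and none of the called members reversed. With library totals, which moved the median of all genes from -0.0111 to 0.205, 35 members were higher and 11 lower, or 76.1% of calls higher against 58.1%, and the members' median was 0.38; the recomputed median ratios changed no member's call. Totals without crystallins gave 27 higher and 14 lower, and a median of all genes of 0.0772. With a mean of at least 50, 10 members were no longer tested, so 1 mitotic or kinetochore member was lower in place of 5. Leaving out 1 library gave 19 to 24 members higher, 13 to 17 lower, 15 to 17 of the cyclin, CDK, inhibitor, E2F and RB members higher, 3 to 5 of the mitotic ones lower (3 without untreated pool 1, untreated pool 3 or hypoxia pool 2) and a members' median of 0.14 to 0.23; the cause was not tested. Over all genes tested, the same omissions gave 2345 to 2565 higher and 1716 to 2249 lower, against 2681 and 2336 with all 6 libraries. Same-numbered deviations correlated at 0.117, 0.108 and 0.013. The first 2 were above every other combination, while untreated pool 3 correlated more with hypoxia pool 1 (0.026). With 3 libraries a group, such weak correlations cannot decide whether the replicate numbers pair the libraries. The replicate block gave 25 higher and 19 lower members, CDK2AP2 being the added call. Of the 43 calls, 38 were also past 0.05 in the authors' deposited table, all in the same direction, and the other 5 were CDC25A, CDK14, CDK5R1, E2F6 and RBL2. Depth limits the lowest members most: CCNB3 and CENPF rested on as few as 1 and 2 reads in a library.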
